A study of Mus musculus with 6 samples.

Results

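A set of 10 genes encodes the machinery that releases paused RNA polymerase II and carries it through nucleosomes. They were followed in cells sorted by CD31 from the mouse retina. They were chosen by name from 19124 gene symbols of the deposited table: Cdk9, Ccnt1 and Ccnt2 (P-TEFb), Hexim1 and Larp7 (the 7SK particle), Supt4a and Supt5 (DSIF), Supt6, and Supt16 and Ssrp1 (FACT). All 10 had reads in every library, between 142 and 7457 counts, and all 10 passed the filter on low counts. The 3 Ctrl and 3 KO libraries came from 6 different C57BL/6 pups of postnatal day 7. Every pup was labelled Rnf20p/p and was given 75 µg of Z-4-HO-Tamoxifen each day from day 1 to day 4. KO pups carried the inducible recombinase that the labels write as Pdgf{beta}CreERT2, and Ctrl pups did not, so the recombinase is limited to cells in which that promoter is active, and the controls carried the same Rnf20 alleles and drug. The labels do not spell out the p allele or which part of Rnf20 is removed.

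Transcription of most genes pauses shortly after it starts. DSIF and a second factor, NELF, hold the polymerase there until P-TEFb, the kinase Cdk9 with a cyclin T, phosphorylates them and the polymerase tail. The 7SK particle keeps part of P-TEFb inactive, with Hexim1 as the inhibitor and Larp7 as the protein that stabilises the 7SK RNA. Behind the pause, Spt6 and FACT move and restore histones as the polymerase passes, and FACT is known to act together with the ubiquitin mark that Rnf20 and Rnf40 place on histone H2B.

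The promoters of the P-TEFb genes are shown because these genes hold the widest differences of the set in both directions. Each line gives the 150 bases before the annotated start, read 5′ to 3′ on the gene's own strand (RefSeq, GRCm38.p6), at chr2:32712785-32712934 (minus strand) for Cdk9, chr15:98567737-98567886 (minus strand) for Ccnt1 and chr1:127774014-127774163 (plus strand) for Ccnt2. Capitals mark 3 short motifs on either strand: the letters GGGCGG of a GC box, the letters CCAAT of the box of that name, and the letters CGGAAG of a core bound by ETS factors. Adjoining or overlapping matches run together.
Cdk9: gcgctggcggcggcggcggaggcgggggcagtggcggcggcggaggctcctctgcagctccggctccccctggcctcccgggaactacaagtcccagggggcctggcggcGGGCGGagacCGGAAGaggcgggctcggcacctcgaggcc
Ccnt1: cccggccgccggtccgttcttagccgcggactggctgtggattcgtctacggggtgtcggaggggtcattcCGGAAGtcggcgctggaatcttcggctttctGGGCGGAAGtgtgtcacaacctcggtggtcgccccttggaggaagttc
Ccnt2: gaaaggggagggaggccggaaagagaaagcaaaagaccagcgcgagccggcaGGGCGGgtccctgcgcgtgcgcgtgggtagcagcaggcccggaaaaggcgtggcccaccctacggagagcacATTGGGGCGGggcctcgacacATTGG
Cdk9 had 1 match to the GC box and 1 to the ETS core, Ccnt1 had 1 and 2, and Ccnt2 had 2 GC boxes, 2 CCAAT boxes and 0 ETS cores. All 10 members matched the promoter table, with 11 windows since Ssrp1 has 2 starts. The GC box was found in 8 of the 11 windows and in 28.6% of all 32851 promoters of the same length. The ETS core was found in 5 of 11 and 10.4%, and the CCAAT box in 2 of 11 and 24.5%. The background promoters were not limited to expressed genes or matched for GC content, which ran from 50.0% to 79.3% over the 11 windows. Whether the set differs from such matched promoters was not tested. A match describes letters and does not show a bound factor.

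The libraries held 14581701 to 30692948 counts. The targeted gene Rnf20 had 47.9, 57.1 and 56.8 CPM (counts scaled to a common library size, with edgeR's TMM correction for composition) across Ctrl 1, 2 and 3, against 39.1, 31.0 and 31.7 across KO 1, 2 and 3. Those groups did not overlap, but the difference missed the threshold of edgeR's quasi-likelihood test (log2 fold change −0.67, SE 0.235, Benjamini-Hochberg adjusted p = 0.101, range 0.00280 to 0.309 over 14 alternatives). Without KO 1 it was past that edgeR threshold (−0.71, adjusted p = 0.0373). Its partner Rnf40 had a log2 fold change of −0.44 (edgeR's quasi-likelihood test, Benjamini-Hochberg adjusted p = 0.374, range 0.00795 to 0.735 over 14 alternatives). Rnf40 passed that edgeR threshold with offsets for the GC content of transcripts (−0.84, adjusted p = 0.0404). With libraries scaled to equal endothelial markers both Rnf20 (−1.92, edgeR adjusted p = 0.00280) and Rnf40 (−1.78, edgeR adjusted p = 0.00795) passed. In that setting 48.1% of all genes passed, 0.456% higher and 47.7% lower, and the median log2 fold change of all genes was −1.24. The sex of the pups differed between the groups: Xist, made from the inactive X chromosome, had 3174 to 5058 counts in Ctrl and 1 to 111 in KO, and the Y-linked Ddx3y had 0 to 3 in Ctrl and 600 to 3866 in KO. Genotype and sex therefore cannot be told apart in any comparison here. The sorted cells held all 15 endothelial markers, with a summed level of 3514 to 5416 CPM in Ctrl and 10944 to 15298 CPM in KO, and all 14 photoreceptor markers, with 21764 to 37057 CPM in Ctrl and 5641 to 23066 CPM in KO. Of the endothelial markers 11 rose and 0 fell by edgeR's quasi-likelihood test (13 and 0 at an unadjusted p below 0.05, 11 and 0 by DESeq2 and by limma-voom). None of the measured markers of any list was at 0 in all libraries. Summed levels also did not overlap for inner retinal neuron markers (2741 to 3225 CPM in Ctrl, 944 to 1747 in KO), erythroid markers (50.6 to 81.6 and 384 to 557 CPM) and platelet markers (9.99 to 13.6 and 19.4 to 41.9 CPM). By edgeR 3 photoreceptor and 4 inner retinal neuron markers fell and 0 rose, while 4 of 5 erythroid, 1 of 4 platelet, 4 of 12 glia, 1 of 12 mural, 1 of 8 retinal progenitor and 1 of 16 cell cycle markers rose and 0 fell. All 12 mural markers (median log2 fold change 1.29) and all 14 microglia markers (median 2.19) had positive estimates, with 0 microglia markers called by edgeR, DESeq2 or limma-voom and 0 at an unadjusted p below 0.05. KO 2 had the highest sums of microglia (12878 CPM) and glia (17361 CPM) markers. The sums of the 16 cell cycle genes did not overlap either (384 to 811 CPM in Ctrl, 815 to 1289 CPM in KO). The part of these cell mixtures in the values below was not tested, and in such bulk samples fewer cells of a type and less RNA per cell cannot be told apart.

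Of the 10 members 0 rose and 1 fell in KO when 16217 genes were tested together (edgeR's quasi-likelihood test, Benjamini-Hochberg adjusted p below 0.05). Among all genes tested 10.3% passed, 5.85% higher and 4.44% lower, so a count of 1 in 10 is near the background. The gene that fell was the cyclin Ccnt2. At an unadjusted p below 0.05, 2 members were higher (Cdk9 and Hexim1) and 1 lower, beside 30.5% of all genes (16.2% higher and 14.3% lower), so this count is at the background too. DESeq2 on the same counts called 1 higher and 1 lower (22.1% of all genes, 12.6% higher and 9.49% lower), and limma-voom 0 higher and 1 lower (11.8%, 6.09% and 5.69%). With offsets for the GC content of transcripts edgeR called 0 members (12.9% of all genes, 5.72% higher and 7.21% lower). With libraries scaled to equal endothelial markers it called 0 higher and 6 lower (48.1%, 0.456% and 47.7%), while the median log2 fold change of all genes moved to −1.24. The authors' deposited table lists an adjusted p below 0.05 for 2 members, Cdk9 and Ccnt2, and for 21.8% of its genes. The authors' deposited table gives Ccnt2 a log2 fold change of −0.94 with an adjusted p of 0.00334, and Hexim1 one of 0.82 with 0.0525. The median log2 fold change of the 10 members was 0.01 against 0.03 over all genes tested, and the median of its absolute size was 0.19 against 0.63. The median SE was 0.271 for the members and 0.380 over all genes, so the members were also measured more precisely. In 4 of the 10 members every library of 1 group lay above every library of the other (Cdk9 and Hexim1 higher in KO, Ccnt2 and Supt6 lower), against 37.9% of all genes (19% higher, 18.9% lower).

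**Figure D1:**
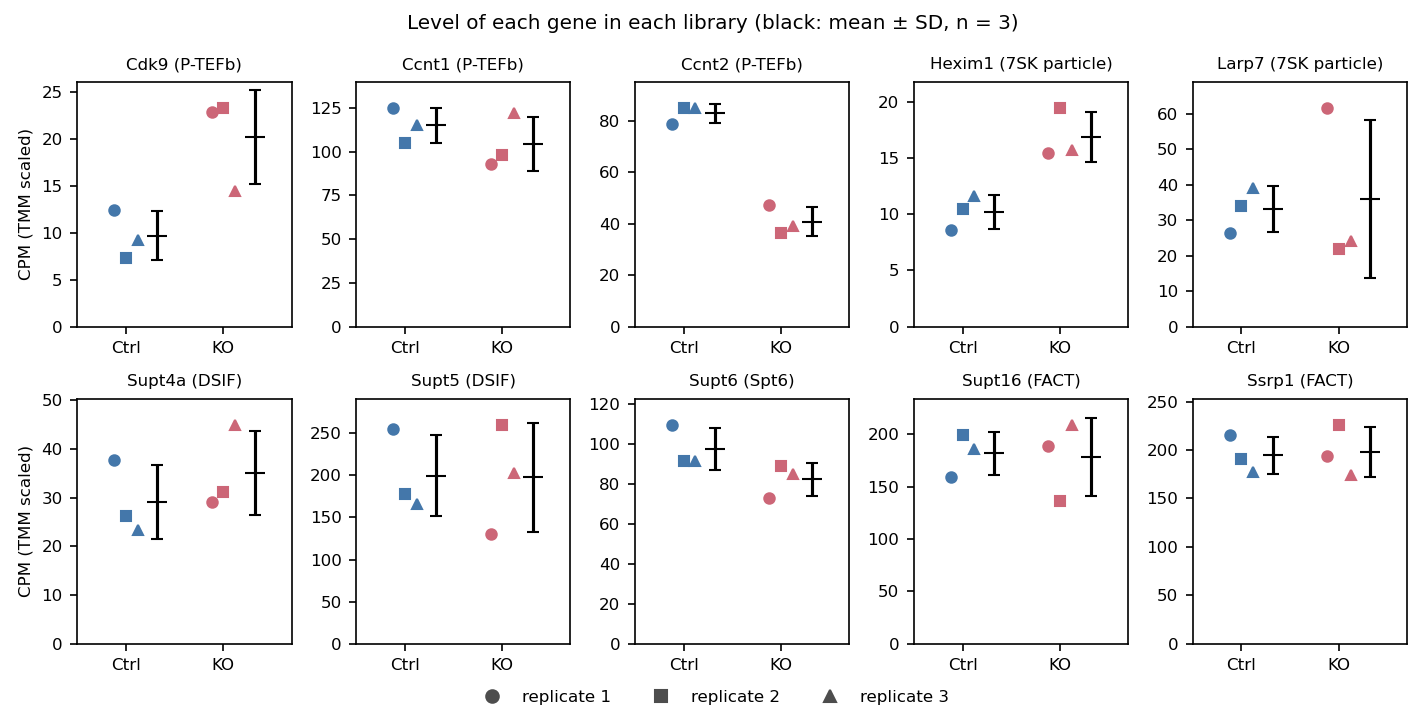
Level of each of the 10 genes in CPM with TMM scaling (vertical axes from 0, a separate range for each gene) in the 3 Ctrl libraries (blue) and the 3 KO libraries (red). The symbols give the replicate, and the black bars the mean and SD over 3 libraries. The Ccnt2 points of KO lie between 36.2 and 47.4 CPM, all below those of Ctrl, while the Supt16 and Ssrp1 points of the groups overlap.

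In P-TEFb the cyclin gene Ccnt2 fell, Ccnt1 was not called, and the kinase gene Cdk9 had a positive estimate that edgeR did not call. Ccnt2, a cyclin T that pairs with Cdk9 (NM_028399, chromosome 1, 127774164 to 127804837, GRCm38.p6), gave 78.7, 85.0 and 84.9 CPM in the libraries Ctrl 1, 2 and 3, against 47.4, 36.2 and 38.9 CPM in KO 1, 2 and 3. Each KO library lay well below each Ctrl library, and the Ctrl libraries were close to each other. The mean went from 82.9 ± 3.59 to 40.8 ± 5.82 CPM (SD, n = 3 each), a 2.03-fold fall with a log2 fold change of −1.02 (SE 0.224, 95% interval −1.54 to −0.51). It passed edgeR's quasi-likelihood test (Benjamini-Hochberg adjusted p = 0.0320, range 0.00201 to 0.161 over 14 alternatives). By exact permutation over the libraries p was 0.1, which 3 against 3 cannot go below. With offsets for the GC content of transcripts, 43.0% for Ccnt2, the log2 fold change was −0.57 and no longer passed edgeR's quasi-likelihood test (adjusted p = 0.102). Without Ctrl 1, Ctrl 2, Ctrl 3, KO 2 or KO 3 it stayed between −1.06 and −0.92 but did not pass that edgeR test (adjusted p = 0.0923, 0.151, 0.143, 0.113 and 0.0700).

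Cdk9, the catalytic subunit (NM_130860, chromosome 2, 32705782 to 32712784), gave 12.4, 7.30 and 9.25 CPM in the libraries Ctrl 1, 2 and 3, against 22.9, 23.3 and 14.4 CPM in KO 1, 2 and 3. KO 1 and KO 2 were high, and KO 3 lay just above the highest Ctrl library. Means were 9.67 ± 2.59 (Ctrl) and 20.2 ± 5.02 CPM (KO, both SD, n = 3), a ratio of 2.09, which is 1.06 as a log2 fold change (SE 0.345, 95% interval 0.27 to 1.85). It missed the threshold of edgeR's quasi-likelihood test (Benjamini-Hochberg adjusted p = 0.0834, range 0.0252 to 0.603 over 14 alternatives), and the exact permutation test gave its smallest value, p = 0.1. DESeq2 called it (log2 fold change 1.10, adjusted p = 0.0252), and the authors' deposited table lists 1.15 with an adjusted p of 0.0169. With libraries scaled to equal endothelial markers its log2 fold change was −0.30. In that setting the median of all genes was −1.24, against 0.03 in the main fit. Cdk9 rests on 142 to 585 counts per library.

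Ccnt1, the other cyclin T of P-TEFb (NM_009833, chromosome 15, 98538690 to 98567736), gave 125, 105 and 115 CPM in the libraries Ctrl 1, 2 and 3, against 93.1, 98.3 and 122 CPM in KO 1, 2 and 3. The groups overlapped, and the log2 fold change of −0.14 (95% interval −0.66 to 0.38) missed the threshold of edgeR's quasi-likelihood test (Benjamini-Hochberg adjusted p = 0.714). Its span shares 413 bases with the noncoding gene 9330020H09Rik, so a small part of its counts is uncertain. The ratio of Ccnt1 to Ccnt2 within a library does not change with library scaling, though a correction by gene can move it, and it was compared between groups only, since counts of genes of unequal length are not amounts. On the log2 scale it took values of 0.67, 0.30 and 0.44 across Ctrl 1, 2 and 3, against 0.97, 1.44 and 1.65 across KO 1, 2 and 3. Every KO library lay above every Ctrl library, with a mean difference of 0.89 (exact permutation p = 0.1, adjusted p = 0.4 over 4 ratios). With GC offsets, tried on the ratios after seeing the data, the difference was 0.42 and the groups still did not overlap (exact permutation p = 0.1).

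Hexim1, the inhibitor of P-TEFb, also had a positive estimate that was not called. The gene (NM_138753, chromosome 11, 103116325 to 103119725) gave 8.61, 10.5 and 11.6 CPM in the libraries Ctrl 1, 2 and 3, against 15.5, 19.5 and 15.7 CPM in KO 1, 2 and 3. All KO libraries lay above all Ctrl libraries. Means were 10.2 ± 1.51 (Ctrl) and 16.9 ± 2.24 CPM (KO, both SD, n = 3), a ratio of 1.65. The log2 fold change of 0.72 (SE 0.292, 95% interval 0.05 to 1.40) missed the threshold of edgeR's quasi-likelihood test (Benjamini-Hochberg adjusted p = 0.140), and the exact permutation test gave p = 0.1. With equal endothelial markers it was −0.53, where the median of all genes was −1.24. The log2 ratio of Cdk9 to Hexim1 took values of 0.53, −0.52 and −0.33 across Ctrl libraries, against 0.56, 0.26 and −0.12 across KO libraries. Those values overlapped, with a mean difference of 0.34 (exact permutation p = 0.4, adjusted p = 0.533 over 4 ratios), which was −0.05 with GC offsets.

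Larp7 (NM_138593, chromosome 3, 127536714 to 127553349) gave 26.3, 34.0 and 39.1 CPM in the libraries Ctrl 1, 2 and 3, against 61.7, 21.9 and 24.2 CPM in KO 1, 2 and 3. KO 1 was the highest of all 6 libraries and the other KO libraries were the lowest. Its log2 fold change of 0.12 (95% interval −0.87 to 1.10) missed the threshold of edgeR's quasi-likelihood test (Benjamini-Hochberg adjusted p = 0.876), and without KO 1 it was −0.45. The span of Larp7 holds the miRNA genes of the Mir302 and Mir367 cluster, and 1815 bases of its span are shared with the noncoding gene Gm51018, which had 89 to 207 counts. Of the other 7SK genes on the list, Mepce, which caps the 7SK RNA, averaged 21.7 ± 7.98 CPM (Ctrl) and 34.7 ± 4.15 CPM (KO), and Hexim2, the paralog of Hexim1, averaged 40.2 ± 12.8 and 21.6 ± 11.3 CPM (SD, n = 3). These were named after their values were seen. Neither was past the threshold of edgeR's quasi-likelihood test (log2 fold changes 0.67 and −0.90, Benjamini-Hochberg adjusted p = 0.192 and 0.213), and the point estimates of the Hexim paralogs had opposite signs.

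The DSIF genes were not called by edgeR, DESeq2 or limma-voom. Supt5, the large subunit and a substrate of Cdk9 (NM_013676, chromosome 7, 28314891 to 28338804), gave 255, 178 and 166 CPM in the libraries Ctrl 1, 2 and 3, against 130.3, 260.1 and 203 CPM in KO 1, 2 and 3. KO 1 was the lowest library and KO 2 the highest. The log2 fold change was −0.02 (95% interval −0.75 to 0.72, edgeR's quasi-likelihood test, Benjamini-Hochberg adjusted p = 0.979). With GC offsets the log2 fold change of Supt5 was −0.38 (edgeR adjusted p = 0.233). Supt4a, the small zinc-binding subunit (NM_009296, chromosome 11, 87737551 to 87743623), gave 37.7, 26.3 and 23.3 CPM in the libraries Ctrl 1, 2 and 3, against 29.0, 31.2 and 45.0 CPM in KO 1, 2 and 3. The groups overlapped (log2 fold change 0.27, 95% interval −0.43 to 0.97, edgeR's quasi-likelihood test, Benjamini-Hochberg adjusted p = 0.582). Mouse has a copy of it, Supt4b, and 27.6% of the stretches of 50 bases (the read length) in the Supt4a transcript also occur in Supt4b, so reads could be split between them. Supt4b itself had a log2 fold change of 0.69 (edgeR's quasi-likelihood test, Benjamini-Hochberg adjusted p = 0.187). The log2 ratio of Supt4a to Supt5 took values of −2.76, −2.76 and −2.84 across Ctrl libraries, against −2.17, −3.06 and −2.17 across KO libraries. The Ctrl values were nearly equal, and the KO values lay on both sides of them (mean difference 0.32, exact permutation p = 0.4, adjusted p = 0.533 over 4 ratios). With GC offsets the difference was 0.59 and the groups did not overlap (exact permutation p = 0.1).

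**Figure D2:**
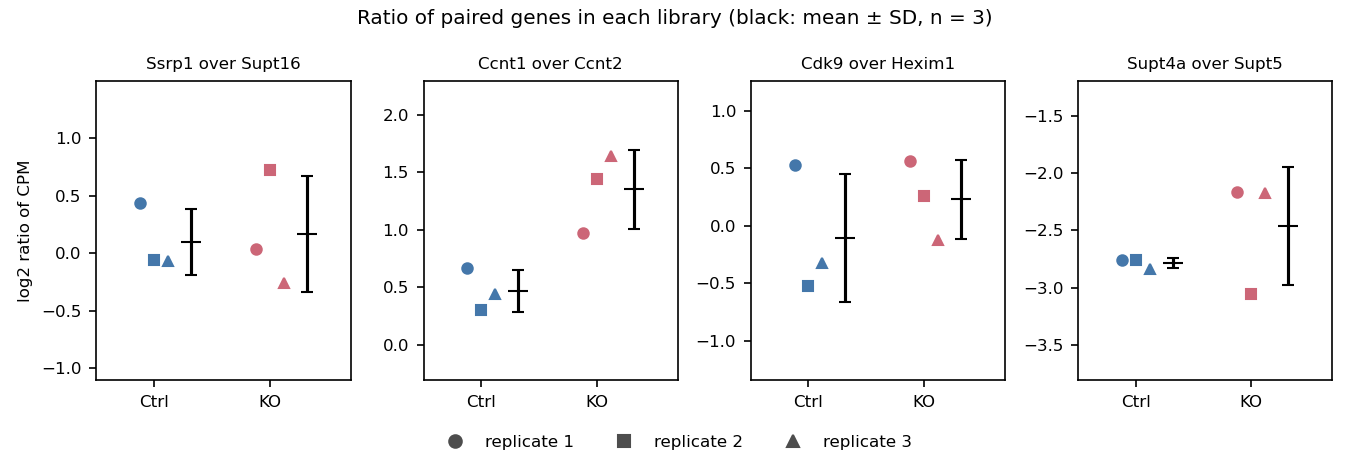
Log2 ratio of the CPM of paired genes within each library (vertical axes of equal height, Ctrl in blue, KO in red, symbols by replicate, black bars for mean and SD over 3 libraries). Without GC offsets Ccnt1 over Ccnt2 is the pair whose groups do not overlap, from 0.30 to 0.67 in Ctrl and from 0.97 to 1.65 in KO.

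Supt6, the histone chaperone that travels with the elongating polymerase (NM_009297, chromosome 11, 78206749 to 78245972), gave 109.7, 91.4 and 91.6 CPM in the libraries Ctrl 1, 2 and 3, against 73.0, 88.9 and 85.2 CPM in KO 1, 2 and 3. The groups did not overlap, yet KO 2 lay just below the lower Ctrl libraries. The log2 fold change of −0.24 (95% interval −0.76 to 0.27) missed the threshold of edgeR's quasi-likelihood test (Benjamini-Hochberg adjusted p = 0.490), and the exact permutation test gave p = 0.1. The RefSeq span of Supt6 (39224 bases) shares 227 bases with Sdf2, which had 1295 to 5548 counts. The counted entry is shorter (38954 bases), so it may not reach Sdf2.

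In the main fit the FACT genes had the point estimates closest to 0 together with Supt5. Supt16, the large subunit (NM_033618, chromosome 14, 52160419 to 52197239), gave 159, 199 and 186 CPM in the libraries Ctrl 1, 2 and 3, against 189, 136 and 209 CPM in KO 1, 2 and 3. Its means were 182 ± 20.4 (Ctrl) and 178 ± 37.4 CPM (KO, both SD, n = 3), and KO held the lowest and the highest library. Ssrp1, the subunit with the HMG box (NM_182990, chromosome 2, 85037120 to 85047114), gave 215, 191 and 177 CPM in the libraries Ctrl 1, 2 and 3, against 194, 226 and 174 CPM in KO 1, 2 and 3. Its means were 195 ± 19.1 (Ctrl) and 198 ± 26.1 CPM (KO, both SD, n = 3). Of all members it was the steadiest, with 1.30-fold between the highest and the lowest library. The log2 fold changes were −0.03 (95% interval −0.60 to 0.55) for Supt16 and 0.03 (95% interval −0.49 to 0.55) for Ssrp1, and neither was past the threshold of edgeR's quasi-likelihood test (Benjamini-Hochberg adjusted p = 0.951 and 0.949). Supt16 shares 921 bases with Rpgrip1, a photoreceptor gene of 7592 to 31485 counts that itself went from 938 ± 120.2 to 453 ± 214 CPM (SD, n = 3), so its counts are uncertain. The log2 ratio of Ssrp1 to Supt16 took values of 0.43, −0.06 and −0.07 across Ctrl libraries, against 0.04, 0.73 and −0.26 across KO libraries (mean difference 0.07, exact permutation p = 0.8, adjusted p = 0.8 over 4 ratios). That difference was −0.27 with GC offsets.

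**Figure D3:**
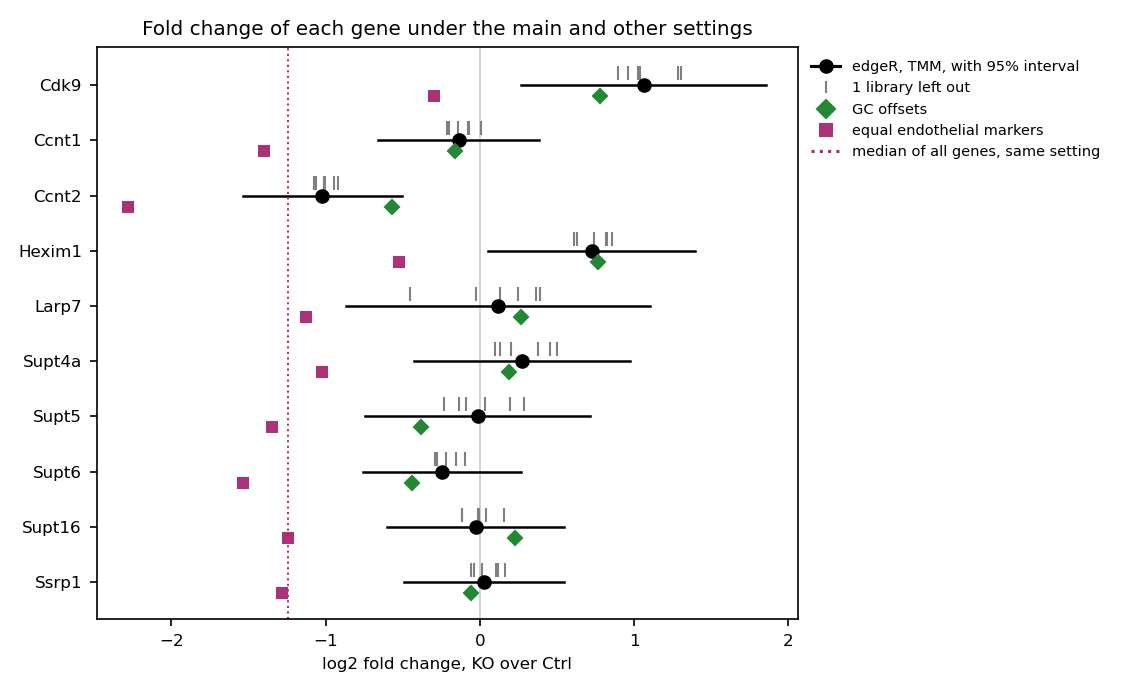
Log2 fold change of KO over Ctrl for each gene (horizontal axis): black points with lines give edgeR's estimate and 95% interval, grey ticks the estimates with 1 library left out, green diamonds those with GC offsets and purple squares those with libraries scaled to equal endothelial markers, whose all-gene median of −1.24 is the dotted line. Ccnt2 lies below 0 in each of these settings, and Cdk9 and Hexim1 lie above 0 except with equal endothelial markers.

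The members differed in how much they varied between pups of 1 group. The within-group SD of log2 CPM was 0.15 for Ccnt2 and for Supt6, 0.17 for Ssrp1 and Ccnt1, 0.43 for Supt5 and 0.62 for Larp7. Across the 6 libraries, which share their scaling, 23 of the 45 pairs of members had a positive Pearson correlation of log2 CPM, with a median of 0.0022. Of the 6 pairs listed under the same complex 2 were positive, Ccnt1 with Ccnt2 (0.35) and Supt4a with Supt5 (0.49). The former are both cyclins T, each a partner of Cdk9. The lowest value of the 6 pairs was −0.91, for Supt16 and Ssrp1 (n = 6 libraries). Across all pairs the lowest was −0.93, for Larp7 and Supt5, and the highest 0.75, for Cdk9 and Hexim1. Group means were not removed, so differences between Ctrl and KO are part of these correlations and of those that follow. The genes with the pattern most like Cdk9 over the 6 libraries were Rcc2, Zkscan17 and Ctdspl (r = 0.992, 0.991 and 0.991). Those most like Supt5 were Cybc1, Cnppd1 and Abca2 (r = 0.998, 0.996 and 0.994), and those most like Ssrp1 were Ndel1, Pdcd11 and Psmd2 (r = 0.968, 0.960 and 0.951). High values over 6 libraries were not limited to the named genes: of 12351 genes, 232 reached an r above 0.9 with Cdk9, 245 with Supt5 and 19 with Ssrp1.

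Around these members, 71 other genes of elongation and histone transfer were followed in 8 lists, and all 71 were tested. Of them 3 rose and 0 fell by edgeR's quasi-likelihood test, beside 5.85% and 4.44% of all genes. At an unadjusted p below 0.05, 10 were higher and 9 lower (16.2% and 14.3% of all genes). DESeq2 called 7 higher and 3 lower (12.6% and 9.49%), and limma-voom 3 and 1 (6.09% and 5.69%). None of these counts stands above its background. Their median log2 fold change was −0.05 and the median of its absolute size 0.48. The 3 were a pair of polymerase subunits and an elongation factor. Polr2h went from 20.8 ± 1.13 to 41.8 ± 7.01 CPM (log2 fold change 1.01) and Polr2f, which like Polr2h also serves the other nuclear polymerases, from 57.9 ± 11.0 to 119 ± 26.8 CPM (1.04, SD, n = 3 each). Both passed edgeR's quasi-likelihood test narrowly (Benjamini-Hochberg adjusted p = 0.0440 and 0.0486), and neither passed it without the filter on low counts (adjusted p = 0.0542 and 0.0552, ranges 0.00385 to 0.625 and 0.00774 to 0.656 over 14 alternatives each). With equal endothelial markers, where the median of all genes was −1.24, both were negative (−0.25 and −0.24). With GC offsets Polr2f was 0.45. Tcea3, a tissue-restricted form of the factor TFIIS that rescues stalled polymerase, rose from a low level of 0.876 ± 0.379 to 4.35 ± 1.19 CPM (SD, n = 3, log2 fold change 2.33, edgeR's quasi-likelihood test, Benjamini-Hochberg adjusted p = 0.0345, range 0.000337 to 0.153 over 14 alternatives). Its lowest library held 17 counts. Each of these 3 genes was past the edgeR threshold without KO 1 and lost it without any 1 of the other 5 libraries.

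Polr2h and Polr2f were 2 of the 13 genes named as polymerase subunits, Polr2a to Polr2m (median log2 fold change 0.35). Tcea3 was 1 of the 7 genes of TFIIS, elongin and the Spt6 partner Iws1 (median −0.25). Beyond these genes the lists had 0 past edgeR's threshold in either direction. The counts that follow are read beside the shares of all genes, which were 30.5% for an unadjusted p below 0.05, then 22.1% for DESeq2 and 11.8% for limma-voom. The 4 NELF genes, which hold the pause, had log2 fold changes from −0.13 to 0.82, with 1 at an unadjusted p below 0.05, 1 higher by DESeq2 and 0 by limma-voom. The 12 genes of the super elongation complex and the BET proteins, which bring P-TEFb to genes, ranged from −1.50 to 0.72, with 4 at an unadjusted p below 0.05, 1 higher and 1 lower by DESeq2 and 1 lower by limma-voom. The lowest value and both lower calls belong to Eaf2, named after its values were seen. Its span holds the gene Iqcb1, which is listed with 6586 counts over the 6 libraries against 6821 for Eaf2, so nearly all of the Eaf2 counts may be reads of Iqcb1. Without Eaf2 the other 11 genes ranged from −0.67 to 0.72, with 3 at an unadjusted p below 0.05, 1 higher and 0 lower by DESeq2 and 0 by limma-voom. The 14 Integrator genes, whose complex ends transcription at paused sites, had a median of −0.35 and 3 positive values, where 8277 of all 16217 genes tested were positive. Of the 14 genes, 4 were at an unadjusted p below 0.05, 2 were lower by DESeq2 and 0 were called by limma-voom. The 6 genes of other kinases of the polymerase tail and their partners had a median of 0.05, with 0 at an unadjusted p below 0.05 and 0 by DESeq2 and limma-voom. The 13 other histone chaperones had a median of 0.20, with 3 at an unadjusted p below 0.05, 1 higher by DESeq2 and 0 by limma-voom.

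**Figure D4:**
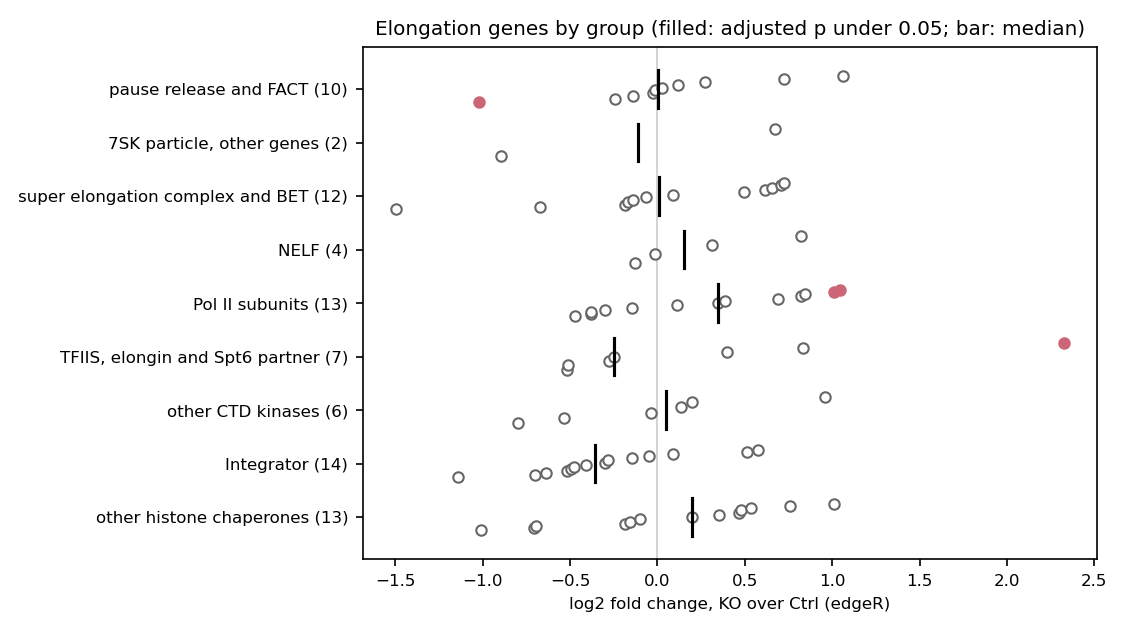
Log2 fold change of KO over Ctrl by edgeR (horizontal axis) for the 10 genes of pause release and FACT and for the 8 other lists, with the number of genes in brackets. Each point is a gene, filled where the adjusted p is below 0.05, and the bar is the list's median, which runs from −0.35 for Integrator to 0.35 for the polymerase subunits. The lowest point of the super elongation complex is Eaf2, whose counts may be those of Iqcb1.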

How the data were processed

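RNA of 6 sorted cell samples, 1 per pup, was compared (3 Ctrl, 3 KO). Per the labels' protocols, polyadenylated RNA was amplified as full-length cDNA, fragmented by tagmentation and read as single ends of 50 bases, a preparation that does not mark strand. Trimmomatic 0.36 and STAR, the packages deepTools, edgeR and DESeq2, and the build mm10 are listed in the submitters' processing notes without a role. The read counter is not given in the sources used here. Per the file headers, the authors deposited raw counts, normalized counts (a signal: count over 1 size factor per library), RPKM, a log2 fold change with its error, a Wald score, and a p-value with its adjusted value, for 34035 transcript entries of 19124 symbols. The column CTR35 was taken as Ctrl 3, as the remaining count column of that group. RPKM was not used: 80.4% of deposited lengths lie within 2% of the genomic span, and of 24 genes that lie in an intron of another gene with over 5000 counts of their own, 21 had at least 95% of that number listed for the outer gene, so intronic reads are counted.

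For each symbol the entry of greatest length was kept, ties by count sum (Supt4a has 4 entries and Ssrp1 2). KO was compared with Ctrl by edgeR 4.0.16 (quasi-likelihood, TMM, filterByExpr) in R 4.3.3, with DESeq2 1.42.0 and limma 3.58.1 (voom) as alternatives, 1 library left out, other entries, no filter, GC offsets (loess on GENCODE M21 transcripts), equal endothelial markers and a replicate block. The standard error is the log2 fold change over the root of F. Single values were tested by the exact two-sided permutation test. Summaries and plots used scipy 1.17.1, numpy 2.4.6, pandas 2.3.3 and matplotlib 3.10.9 under Python 3.11.15. Log2 CPM used a prior count of 0.5. Members and lists were chosen with earlier results of these data known. Named genes are the 10 members, Rnf20 and Rnf40, up to 4 genes past the threshold of each list, and the 3 genes most like Cdk9, Supt5 and Ssrp1 among those with a mean of at least 5 CPM; genes that overlap or copy a member, and the other 7SK genes, were added. Coordinates are 1-based gene spans of GRCm38.p6, the assembly of mm10. P-values set the difference between the groups against the spread between these pups, 1 library each. For that spread edgeR, DESeq2 and limma-voom also draw on the other genes. Depth bounds precision: the least counted member has 142 counts in a library.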

Additional observations from a re-analysis of the deposited data

How the results depend on the processing

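The number of genes past the threshold was 1668 in the main fit, 3556 with DESeq2, 7804 with libraries scaled to equal endothelial markers, 1 with the replicate block and between 0 and 4927 with 1 library left out (0 without Ctrl 1, Ctrl 2, Ctrl 3 or KO 2, 866 without KO 3 and 4927 without KO 1). The share of higher genes among those called was 56.8%, 44.3% with GC offsets and 0.948% with equal endothelial markers. For the members the count was 1, against 2 with DESeq2, 6 (all lower) with equal endothelial markers, 0 with GC offsets, 0 with the replicate block and 0 to 1 with 1 library left out (1 without KO 1). For the 71 wider genes it was 3, against 10, 41, 6 and 0 in those settings, 1 without a filter and 0 to 26 with 1 library left out (26 without KO 1).

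Same-numbered libraries did not deviate together (correlations −0.32, 0.07 and −0.23), and Ctrl and KO libraries of unlike number ranged from −0.28 to 0.36. These values gave no sign that the numbers pair the pups, but with 3 libraries per group they cannot settle it. With the replicate block Ccnt2 was at −1.03 (edgeR adjusted p = 0.161) and Larp7 at −0.0499. Ccnt2 was at −0.57 with GC offsets. Cdk9 passed with DESeq2 (1.10). With equal endothelial markers, where the median of all genes was −1.24, the log2 fold change was −0.30 for Cdk9, −0.53 for Hexim1, −1.12 for Larp7, −1.02 for Supt4a, −1.40 for Ccnt1, −1.35 for Supt5, −1.54 for Supt6, −1.24 for Supt16, −1.28 for Ssrp1, −0.25 for Polr2h and −0.24 for Polr2f, and the 5 genes Ccnt1, Supt5, Supt6, Supt16 and Ssrp1 then passed as well as Ccnt2. Near 0 the sign was not fixed: Larp7 was at −0.0169 with limma-voom, Supt5 at 0.0250 with DESeq2 and 0.0281 with its size factors, Supt16 at 0.00023 with those size factors and 0.23 with GC offsets, and Ssrp1 at −0.0608 with GC offsets. With 1 library left out the range was −0.22 to 0.0045 for Ccnt1, −1.07 to −0.92 for Ccnt2, −0.45 to 0.39 for Larp7, −0.24 to 0.28 for Supt5, −0.12 to 0.16 for Supt16, −0.0572 to 0.16 for Ssrp1 and −0.21 to 0.28 for the ratio of Ssrp1 to Supt16. GC offsets, applied to the ratios after seeing the data, gave −0.27 for Ssrp1 over Supt16 and −0.0525 for Cdk9 over Hexim1. Scaling to endothelial markers moves the reference level of all genes by construction, and a left-out library leaves fewer samples. The cause of the other shifts, those with GC offsets included, was not tested.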
